A study of Mus musculus with 12 samples.

Results

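Cell-surface receptor genes of macrophages, 9 of the 24346 genes in the table, were followed in mouse bone-marrow-derived macrophages given tunicamycin, LPS or both. They code for G-protein-coupled receptors of chemoattractants and metabolites: C5ar1 and C3ar1 for complement fragments, Fpr1 and Fpr2 for formyl peptides, Ccr1, Ccr2 and Cx3cr1 for chemokines, and Gpr183 and Gpr84 for oxysterols and medium-chain fatty acids. The genes were taken by name. C5ar1, Cx3cr1, Gpr183 and Gpr84 were selected on their FPKM changes between the groups of these libraries, at least in part, so their levels and fold changes are given as a description with no test. C3ar1, Ccr1, Ccr2, Fpr1 and Fpr2 are rows of a fit over all genes and carry its adjusted p, although they too were picked with earlier results known.

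The cells came from wild-type mouse bone marrow and were grown for 7 days with M-CSF in RPMI medium with 10% serum. Tm_LPS cells received tunicamycin (5 ug/ml) 3 h ahead of a 3 h exposure to LPS (1 ng/ml). Tm cells received tunicamycin alone, LPS cells received LPS alone, and Control cells received neither, with 3 libraries in each of the 4 groups. Tunicamycin blocks N-linked glycosylation and so puts the endoplasmic reticulum (ER) under stress, and LPS is the bacterial lipid that activates TLR4; per the title of the series the question was how ER stress alters the inflammatory response. The labels do not say how long Tm cells were exposed, whether tunicamycin stayed during LPS, or whether the replicates came from separate mice or cultures, so p-values measure the spread between these libraries, which may be technical.

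Receptors of this family span the membrane several times and mostly couple to Gi proteins, whose released beta-gamma subunits activate PI3K-gamma, phospholipase C-beta and Rac, and so steer migration, degranulation and oxidant production. On macrophages the complement and formyl peptide receptors sense infection and tissue damage, Ccr2 and Cx3cr1 guide monocytes and their descendants, Gpr183 responds to the cholesterol product 7-alpha,25-dihydroxycholesterol, and Gpr84 is known as an LPS-inducible receptor. Most are N-glycosylated proteins made in the ER; the libraries measured RNA only.

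All 8 macrophage markers, among them Csf1r, Adgre1 and Cd68, were at 1 FPKM or more in every library. FPKM divides a gene's fragments by the length of its transcript and the size of its library, and read depth is unknown. Summed FPKM was 561108 to 685010 per library, 9507 to 9741 genes reached 1 FPKM, and log2 profiles correlated at 0.973 to 0.986 within groups. T and NK cell, B cell and mast cell markers each summed to 3.12 FPKM or less in every library. Neutrophil markers summed to 61.7 to 154 FPKM in Tm_LPS, 26.7 to 36.3 in Tm, 214 to 350.3 in LPS and 90.7 to 130 in Control libraries, mostly S100a8, S100a9, Ngp and Lcn2, the last of which activated macrophages also make. Monocyte markers summed to 28.9 to 32.3 FPKM in Tm_LPS, 21.1 to 31.2 in Tm, 54.3 to 63.7 in LPS and 37.9 to 49.4 in Control libraries. Stromal markers summed to 25.9 to 60.1 FPKM in Tm_LPS, 29.8 to 50.7 in Tm, 18.0 to 23.6 in LPS and 15.7 to 20.0 in Control libraries, and dendritic cell markers to at most 6.87 FPKM in any library. In bulk RNA of this kind, fewer cells of a type and less RNA per cell cannot be told apart.

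The genes lie on 6 mouse chromosomes (mm10, GENCODE M21). Fpr1 (chr17:17876471-17883940, minus strand) and Fpr2 (chr17:17887824-17893952, plus strand) stand head to head, with their starts 3884 bases apart. Ccr1 (chr9:123962124-123968692, minus strand) and Ccr2 (chr9:124101950-124113557, plus strand) belong to 1 chemokine receptor cluster with Ccr3, and Cx3cr1 (chr9:119901616-120069879, minus strand) lies on the same chromosome. C5ar1 (chr7:16246743-16259540, minus strand) ends 2589 bases from C5ar2, the gene for the other C5a receptor. C3ar1 lies at chr6:122847138-122856161 (minus strand) and Gpr84 at chr15:103308235-103310612 (minus strand). Gpr183 (chr14:121952551-121965195, minus strand) lies inside the body of Ubac2 on the opposite strand.

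Shown here are the 250 bases before the RefSeq start (GRCm38.p6) of 4 of these genes, from RefSeq: the head-to-head pair Fpr1 and Fpr2, whose levels were higher in LPS than in Control, Gpr183, which was lower with either agent than in Control, and C3ar1, which was lower with tunicamycin. The RefSeq and GENCODE starts of these 4 genes differ by at most 4 bases. Each is written 5′ to 3′ on the strand of its gene, and capitals mark a motif match described below.
Fpr1, chr17:17883940-17884189, minus strand: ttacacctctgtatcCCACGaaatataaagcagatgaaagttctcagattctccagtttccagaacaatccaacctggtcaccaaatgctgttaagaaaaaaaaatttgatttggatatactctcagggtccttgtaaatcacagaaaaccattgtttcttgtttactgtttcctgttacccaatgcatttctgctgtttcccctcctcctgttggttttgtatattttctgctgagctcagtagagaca
Fpr2, chr17:17887574-17887823, plus strand: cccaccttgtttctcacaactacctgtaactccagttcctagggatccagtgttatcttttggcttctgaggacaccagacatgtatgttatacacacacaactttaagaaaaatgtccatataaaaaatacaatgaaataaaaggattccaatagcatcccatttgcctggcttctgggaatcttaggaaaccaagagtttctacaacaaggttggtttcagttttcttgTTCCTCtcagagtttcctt
C3ar1, chr6:122856158-122856407, minus strand: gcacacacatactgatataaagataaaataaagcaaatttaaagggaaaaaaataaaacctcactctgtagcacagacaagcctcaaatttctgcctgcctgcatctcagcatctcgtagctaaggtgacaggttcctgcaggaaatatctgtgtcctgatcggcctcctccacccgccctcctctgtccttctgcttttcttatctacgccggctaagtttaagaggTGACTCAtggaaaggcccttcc
Gpr183, chr14:121965194-121965443, minus strand: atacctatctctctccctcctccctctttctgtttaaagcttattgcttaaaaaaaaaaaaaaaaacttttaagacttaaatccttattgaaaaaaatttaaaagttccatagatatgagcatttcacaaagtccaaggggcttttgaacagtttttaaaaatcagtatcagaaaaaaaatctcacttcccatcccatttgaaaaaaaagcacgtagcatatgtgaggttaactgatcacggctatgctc

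The 7 motifs described here were searched on both strands in the 250 bases before the start of all 9 genes, which all matched the RefSeq table, and of 32851 RefSeq promoters. The AP-1 letters TGANTCA, present in 6.75% of all promoters, occurred in C3ar1 alone among the 9, at 22 to 16 bases before the start (TGACTCA). The ETS core GAGGAA, present in 23.3% of all promoters, occurred in Ccr1 and Fpr2. In Fpr2 it lay on the opposite strand, 19 to 14 bases before the start. CCACG, present in 28.3% of all promoters, occurred in Fpr1 (235 to 231 bases before the start) and Gpr84. The amino acid response letters TGATGNAA (3.45% of promoters), the cyclic AMP core TGACG (17.8%), the interferon-stimulated response element (2.98%) and the kB consensus (3.90%) occurred in none of the 9. None of the matches overlapped another motif in these promoters. For C5ar1, Cx3cr1, Ccr2 and Gpr84 the GENCODE start lies 202, 1583, 233 and 174 bases upstream of the RefSeq start that was used, so their windows cover other bases than a GENCODE promoter would. G and C made up 32% of the Gpr183 promoter, 38.4% of Fpr1, 38.8% of Fpr2 and 45.6% of C3ar1, beside a median of 52.4% over all promoters.

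In Control cells C5ar1 and C3ar1 were the most abundant of the 9 transcripts, with mean levels that ranked 120 and 169 among the 24346 genes of the table. Ccr1 ranked 1833, Gpr183 2606, Gpr84 3755, Cx3cr1 4553 and Ccr2 7482 in Control cells, while Fpr1 (11034) and Fpr2 (11594) were under 1 FPKM in every Control library. With LPS alone Gpr84 reached rank 151. The summed FPKM of the 9 genes was 847 to 1005 in Tm_LPS, 358 to 406 in Tm, 1725 to 1992 in LPS and 1119 to 1195 in Control libraries. C5ar1 made up a median of 16.4% of that sum in Tm_LPS, 9.27% in Tm, 40.1% in LPS and 50.8% in Control libraries. Gpr84 made up a median of 55.8% in Tm_LPS, 43.1% in Tm, 31.0% in LPS and 1.48% in Control libraries. C3ar1 made up a median of 26.0% in Tm_LPS, 44.2% in Tm, 26.1% in LPS and 39.5% in Control libraries. Of the summed FPKM of these 9 genes, the largest share thus belonged to Gpr84 in Tm_LPS and to C5ar1 in LPS and Control libraries. In Tm libraries the shares of C3ar1 and Gpr84 were close to each other.

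**Figure D1:**
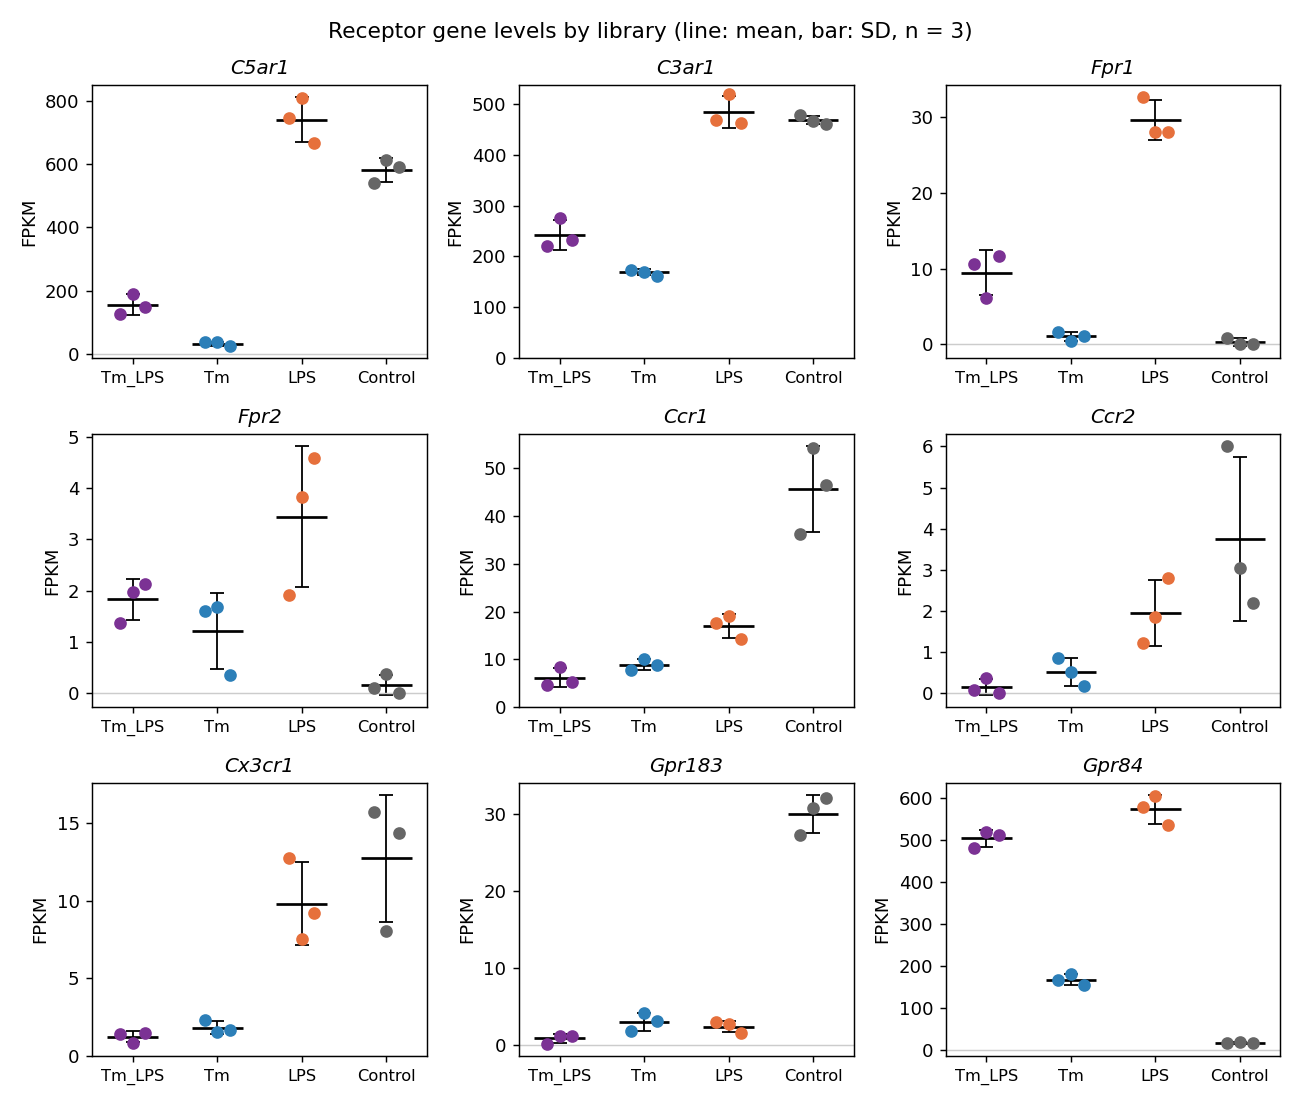
FPKM of the 9 receptor genes in each of the 12 libraries, by group (points: libraries; line: mean; bar: SD, n = 3). C5ar1 and C3ar1 are lowest in Tm libraries, Gpr84 is lowest in Control libraries, and Gpr183 is above 27 FPKM in Control libraries and below 5 FPKM in all others.

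C5ar1, the receptor of the anaphylatoxin C5a, had the largest difference between Tm and Control of the 9 genes. Its FPKM was 127, 191 and 149.9 in Tm_LPS libraries, 36.8, 37.7 and 26.2 in Tm libraries, 746, 806 and 666 in LPS libraries, and 540.1, 613 and 592 in Control libraries. No 2 groups overlapped, and the order from high to low was LPS, Control, Tm_LPS and Tm. On the log2(FPKM + 1) scale, which understates the change of low genes, the difference was -4.09 ± 0.15 (SE) for Tm against Control, a level 17.0-fold lower. With LPS present, Tm_LPS against LPS, it was -2.26 ± 0.15, a level 4.77-fold lower. LPS itself went with a 1.27-fold higher level without tunicamycin (0.34 ± 0.15 log2, or 0.12 with quantile normalization) and a 4.53-fold higher level after tunicamycin (2.18 ± 0.15 log2, Tm_LPS against Tm). The LPS effect was thus larger with tunicamycin than without it by 1.84 ± 0.21 log2. Neutrophils also carry much C5ar1 message, and the neutrophil marker sum was lowest in Tm libraries too; its part in the result was not tested.

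C3ar1, the receptor of C3a, followed the same order of groups over a narrower range. Its FPKM was 220.5, 276 and 232 in Tm_LPS libraries, 174, 170.2 and 162 in Tm libraries, 468, 519 and 463 in LPS libraries, and 477, 466 and 460.4 in Control libraries. LPS and Control libraries overlapped, and all 6 libraries with tunicamycin lay below all 6 without it. By limma on log2(FPKM + 1), with p adjusted by Benjamini-Hochberg over 10311 genes, C3ar1 fell 2.76-fold in Tm against Control (-1.47 ± 0.09 log2, adjusted p = 4.3e-09) and 1.99-fold in Tm_LPS against LPS (-0.99 ± 0.09, adjusted p = 5.8e-07). It rose 1.43-fold in Tm_LPS against Tm (0.52 ± 0.09, adjusted p = 0.000732). LPS against Control gave 0.05 ± 0.09 log2 and did not pass (adjusted p = 0.806). The difference between the LPS effects with and without tunicamycin was 0.47 ± 0.13 log2 and did not pass (adjusted p = 0.0553); it passed without Tm_LPS replicate 1 (adjusted p = 0.0258) and with a filter at 5 FPKM (adjusted p = 0.0470).

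Because FPKM is per length, the levels of the 2 complement receptor genes can be set side by side within a library. The ratio of C5ar1 to C3ar1 FPKM was 0.575 to 0.6903 in Tm_LPS, 0.161 to 0.221 in Tm, 1.44 to 1.59 in LPS and 1.13 to 1.31 in Control libraries. C5ar1 was therefore the less abundant of the pair in all 6 libraries with tunicamycin and the more abundant in all 6 without it. C5ar2, the neighbouring gene whose product binds C5a but does not couple to G proteins, was low, with a mean of 0.2001 FPKM in Tm_LPS, 0.0674 in Tm, 0.452 in LPS and 2.06 in Control libraries. It fell in Tm against Control (-1.50 ± 0.23 log2, limma adjusted p = 0.000122) and in LPS against Control (-1.06 ± 0.23, adjusted p = 0.00376, or 0.0535 with a pseudocount of 0.1). C5ar2 passed the low-value filter only through the Control libraries, where it is high.

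**Figure D2:**
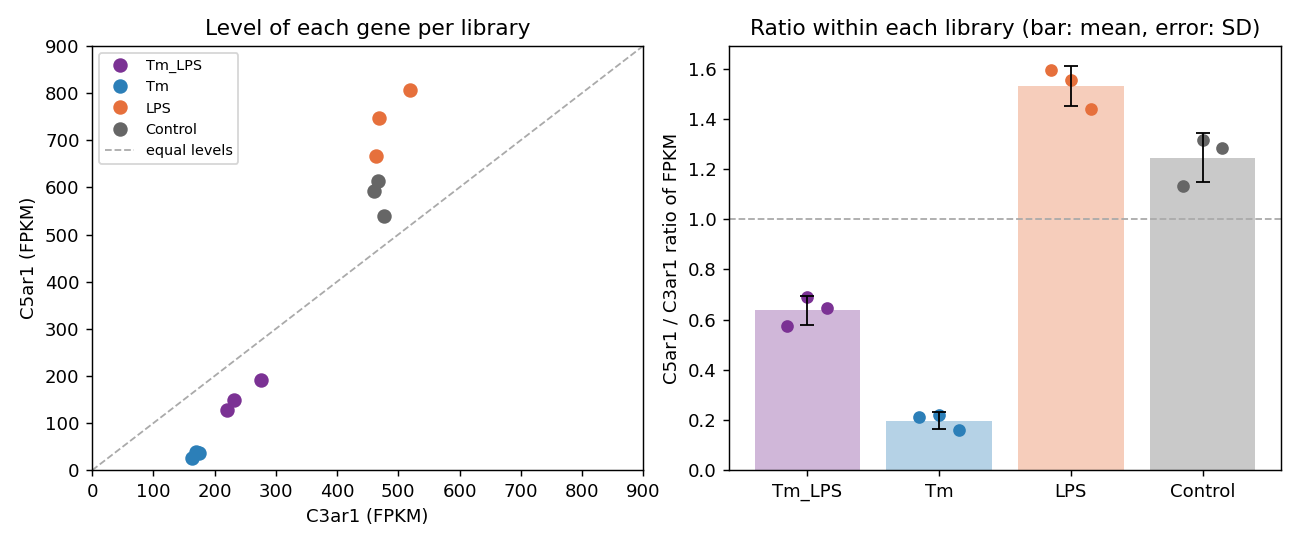
Left: C5ar1 against C3ar1 FPKM in each library, with a dashed line at equal levels. Right: the C5ar1 to C3ar1 ratio within each library by group (bar: mean; error: SD, n = 3; dashed line: ratio of 1). The 6 libraries with tunicamycin lie below the line of equal levels and the 6 without it lie above.

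The formyl peptide receptors bind bacterial N-formyl peptides, and Fpr2 also binds host ligands such as annexin A1. Fpr1 was an LPS-raised gene whose LPS response was smaller after tunicamycin. Its FPKM was 10.7, 6.08 and 11.7 in Tm_LPS libraries, 1.60, 0.457 and 1.13 in Tm libraries, 32.6, 28.1 and 28.0 in LPS libraries, and 0.855, 0 and 0 in Control libraries. Every LPS library lay above every Tm_LPS library, every Tm_LPS library above every Tm library, and Tm and Control libraries overlapped. By limma Fpr1 rose 24.8-fold in LPS against Control (4.63 ± 0.29 log2, adjusted p = 3.13e-09) and 5.06-fold in Tm_LPS against Tm (2.34 ± 0.29, adjusted p = 2.28e-05). The LPS effect was smaller with tunicamycin than without it by 2.29 log2 (interaction -2.29 ± 0.41, adjusted p = 0.00375), and this passed in each of 21 alternative settings, with an adjusted p of at most 0.0351. With Control at or near 0 the pseudocount sets much of these sizes, and with 0.1 in its place LPS against Control was 7.13 log2 and the interaction -3.99. Fpr1 fell 3.00-fold in Tm_LPS against LPS (-1.59 ± 0.29, adjusted p = 0.000699), a call lost with a pseudocount of 0.1 (adjusted p = 0.0783). Tm against Control gave 0.71 ± 0.29 log2 and did not pass (adjusted p = 0.0727). That last value passed without Control replicate 1 (adjusted p = 0.0161), without Tm replicate 2 (0.0351) and with a pseudocount of 0.1 (0.0163).

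Fpr1 is also abundant in neutrophils. The neutrophil marker sum was likewise highest in LPS and lower in Tm_LPS libraries. Of 7 such markers tested, 4 rose in LPS against Control, which is 57.1%, beside 18.4% of all genes. In Tm_LPS against LPS S100a8, S100a9, Ngp and Ltf fell while Lcn2 rose, which is 71.4%, beside 28.9% of all genes. Of the other neutrophil markers, Mpo, Elane and Retnlg stayed under 1 FPKM in every library. Camp reached 2.11 FPKM in an LPS library and Cxcr2 1.26 FPKM in a Tm_LPS library. The part of neutrophils in the Fpr1 result was not tested.

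Fpr2 was the less abundant of the formyl peptide receptor pair in every library with LPS. Its FPKM was 1.37, 1.98 and 2.13 in Tm_LPS libraries, 1.60, 1.69 and 0.357 in Tm libraries, 1.92, 3.84 and 4.59 in LPS libraries, and 0.0974, 0.366 and 0 in Control libraries. Neighbouring groups in the order LPS, Tm_LPS, Tm and Control overlapped, while LPS and Control did not. By limma Fpr2 rose 3.75-fold in LPS against Control (1.91 ± 0.30 log2, adjusted p = 0.000206) and 1.85-fold in Tm against Control (0.89 ± 0.30, adjusted p = 0.0329). With a pseudocount of 0.1 these values were 3.99 and 2.41 log2. The second call did not hold without Control replicate 1 (adjusted p = 0.0780), Control replicate 3 (0.0993), Tm replicate 1 (0.122) or Tm replicate 2 (0.139), with no filter (0.0680) or with quantile normalization (0.105). Tm_LPS did not differ past the threshold from LPS (-0.61 ± 0.30 log2, adjusted p = 0.148) or from Tm (0.41 ± 0.30, adjusted p = 0.418). The interaction was -1.50 ± 0.43 log2 and did not pass (adjusted p = 0.0711), but did without LPS replicate 1 (0.0371) or Tm replicate 3 (0.0240).

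Within a library Fpr1 exceeded Fpr2 3.07- to 7.81-fold in Tm_LPS and 6.11- to 17.0-fold in LPS libraries, while the ratio ranged from 0.271 to 3.17 in Tm libraries. Fpr3, annotated across Fpr2 on the same strand, was listed at 0 in all 12 libraries, so how fragments of the overlap were assigned is a limit on Fpr2. Fpr1 and Fpr2 passed the low-value filter only through the groups where they are high.

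Of the chemokine receptors, Ccr1, which binds Ccl3, Ccl5 and related chemokines, was lower with either agent. Its FPKM was 4.65, 8.40 and 5.32 in Tm_LPS libraries, 7.75, 9.97 and 8.84 in Tm libraries, 17.6, 18.99 and 14.2 in LPS libraries, and 36.2, 54.2 and 46.4 in Control libraries. Control lay above LPS and LPS above both groups with tunicamycin, which overlapped each other. By limma Ccr1 fell 4.69-fold in Tm against Control (-2.23 ± 0.20 log2, adjusted p = 4.02e-07), 2.59-fold in LPS against Control (-1.37 ± 0.20, adjusted p = 9.7e-05) and 2.56-fold in Tm_LPS against LPS (-1.36 ± 0.20, adjusted p = 0.000106). Tm_LPS against Tm gave -0.50 ± 0.20 log2 and did not pass (adjusted p = 0.116), except without Tm_LPS replicate 2 (adjusted p = 0.0210). The interaction was 0.87 log2 and did not pass (adjusted p = 0.124).

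Ccr2, the receptor of Ccl2 and Ccl7 that brings monocytes out of the bone marrow, was low throughout. Its FPKM was 0.0736, 0.352 and 0 in Tm_LPS libraries, 0.851, 0.514 and 0.173 in Tm libraries, 1.21, 1.84 and 2.79 in LPS libraries, and 6.01, 3.05 and 2.19 in Control libraries. All 6 libraries with tunicamycin were under 1 FPKM and all 6 without it were above. Tm_LPS and Tm overlapped, and so did LPS and Control. By limma Ccr2 fell 3.02-fold in Tm against Control (-1.59 ± 0.31 log2, adjusted p = 0.000709) and 2.54-fold in Tm_LPS against LPS (-1.35 ± 0.31, adjusted p = 0.00351). LPS against Control (-0.64 ± 0.31, adjusted p = 0.176), Tm_LPS against Tm (-0.39 ± 0.31, adjusted p = 0.437) and the interaction (0.25 log2, adjusted p = 0.855) did not pass. With a pseudocount of 0.1 Ccr2 was at -2.70 log2 in Tm against Control and -3.29 in Tm_LPS against LPS. Ccr2 passed the low-value filter only through the groups without tunicamycin.

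Cx3cr1, the receptor of fractalkine and a marker of resident macrophages and patrolling monocytes, split the libraries in the same way. Its FPKM was 1.40, 0.823 and 1.502 in Tm_LPS libraries, 2.29, 1.529 and 1.68 in Tm libraries, 12.7, 7.51 and 9.22 in LPS libraries, and 15.7, 8.07 and 14.4 in Control libraries. LPS and Control overlapped, and the lowest Tm library (1.529) was barely above the highest Tm_LPS library (1.502). The log2 difference was -2.24 ± 0.26 in Tm against Control and -2.26 ± 0.26 in Tm_LPS against LPS, levels 4.72-fold and 4.78-fold lower. LPS differences were -0.32 in LPS against Control and -0.34 in Tm_LPS against Tm, each with an SE of 0.26, and the difference between the LPS effects was -0.02 ± 0.37. Ccr2 is also a monocyte gene, and the monocyte marker sum was lower in both groups with tunicamycin than in both without it. Of 4 such markers tested, 2 fell and 1 rose in Tm against Control, and 3 fell in Tm_LPS against LPS. That is 75% of the 4 in each, beside 34.5% and 28.9% of all genes. The part of monocytes in the Ccr2 and Cx3cr1 results was not tested.

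Gpr183, also called EBI2, was high in Control cells only. Its FPKM was 0.182, 1.19 and 1.22 in Tm_LPS libraries, 1.81, 4.11 and 3.10 in Tm libraries, 2.92, 2.71 and 1.53 in LPS libraries, and 27.2, 30.7 and 32.0 in Control libraries. Tm and LPS libraries overlapped, and Tm_LPS libraries lay below both. The level was 9.30-fold lower in LPS than in Control (-3.22 ± 0.28 log2) and 7.94-fold lower in Tm than in Control (-2.99 ± 0.28). With the other agent present the differences were smaller, at -1.12 ± 0.28 log2 in Tm_LPS against Tm and -0.89 ± 0.28 in Tm_LPS against LPS. At these levels the pseudocount sets much of the size, and with 0.1 in its place the last 2 values were -1.92 and -1.62. The LPS effects with and without tunicamycin differed by 2.10 ± 0.40 log2. Ubac2, whose body holds Gpr183 on the other strand, averaged 25.2 ± 2.63 FPKM in Tm_LPS, 26.8 ± 0.629 in Tm, 22.3 ± 1.51 in LPS and 20.9 ± 2.98 in Control libraries (SD, n = 3 each). The sources used here do not give whether the counting used strand, so reads of the 2 genes may not be fully separated.

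Gpr84 had the largest difference between LPS and Control of the 9 genes on the log2(FPKM + 1) scale. That ranking depends on the pseudocount, since the ratio of mean FPKM was 32.5 for Gpr84 and 104 for Fpr1. Its FPKM was 481, 519 and 510.1 in Tm_LPS libraries, 167, 180.1 and 154 in Tm libraries, 578, 603 and 535 in LPS libraries, and 15.6, 20.0 and 17.2 in Control libraries. No 2 groups overlapped. The level was 30.9-fold higher in LPS than in Control (4.95 ± 0.10 log2) and 9.06-fold higher in Tm than in Control (3.18 ± 0.10). After tunicamycin LPS went with a further 3.00-fold higher level (1.59 ± 0.10 log2, Tm_LPS against Tm), while Tm_LPS was 1.14-fold lower than LPS (-0.18 ± 0.10). With quantile normalization that last difference was -0.002 log2. The LPS effect was smaller with tunicamycin than without it by 3.36 log2 (-3.36 ± 0.14).

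**Figure D3:**
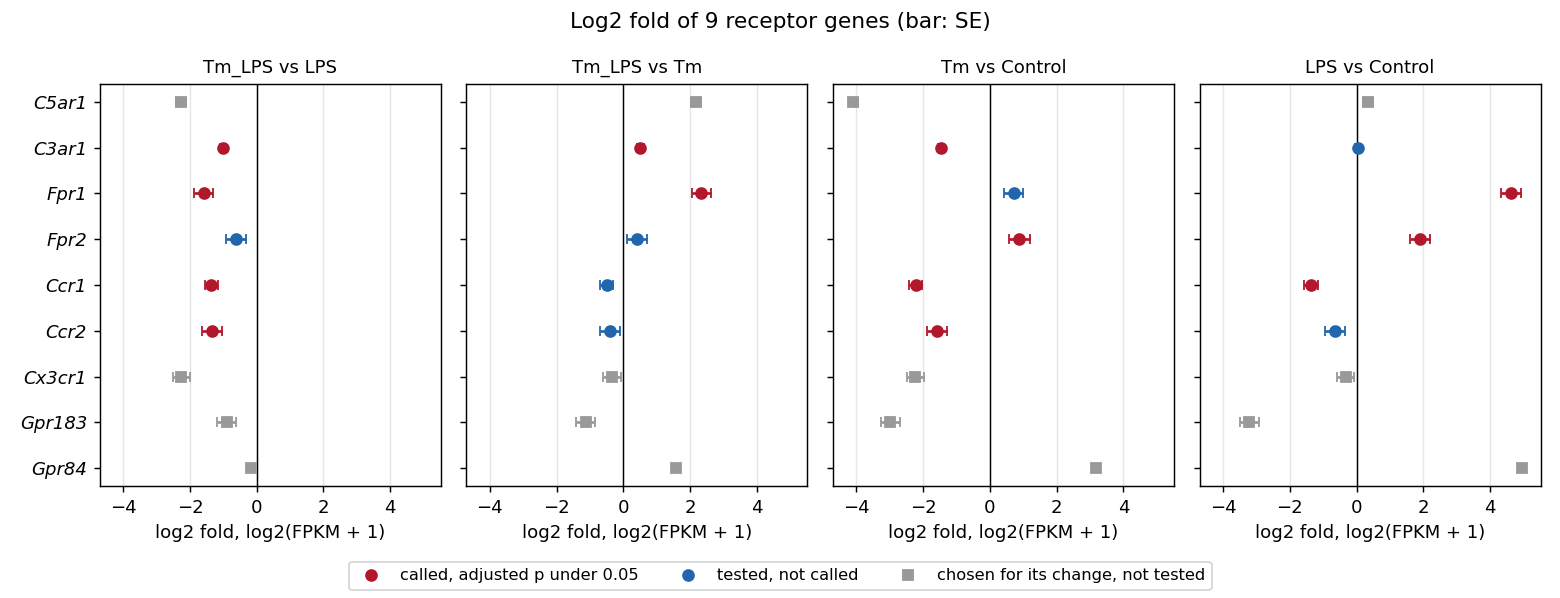
Log2 fold on the log2(FPKM + 1) scale (x axis) of the 9 receptor genes (rows) in 4 comparisons (bar: SE). Red circles passed at an adjusted p under 0.05, blue circles did not, and grey squares were chosen partly for their change and have no test; C5ar1 sits at -4.09 for Tm against Control and Gpr84 at 4.95 for LPS against Control.

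Among the 5 receptors not chosen for a change, 4 fell and none rose in Tm_LPS against LPS, where 28.9% of all genes tested passed, 13.8% higher and 15.1% lower. In Tm against Control 3 fell and 1 rose, where 34.5% of all genes passed, 17.9% higher and 16.6% lower. In LPS against Control 2 rose and 1 fell, where 18.4% of all genes passed, 10.5% higher and 7.86% lower. In Tm_LPS against Tm 2 rose and none fell, where 15.7% passed, 8.69% higher and 7.00% lower. For the interaction 1 of the 5, Fpr1, passed and was lower, where 3.37% of all genes passed, 1.41% higher and 1.96% lower. These counts describe 5 genes picked with results known, and Fpr1, Fpr2 and Ccr2 passed the low-value filter only through the groups where they are high. Fpr1 and Fpr2 are the genes that rose in LPS against Control. Fpr1 and Ccr2 are among those that fell in Tm_LPS against LPS. The counts set beside the shares of all genes are therefore partly set by that filter. LPS against Control and Tm against Control share the Control libraries, and each other pair of comparisons that names a group in common shares its libraries.

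The chemokine ligands of these receptors were higher with LPS and lower with tunicamycin in most cases. Of 8 chemokine ligands tested, 6 rose and none fell in LPS against Control (median 2.15 log2, beside 0.002 over all genes), and 5 fell and none rose in Tm against Control (median -1.28, beside 0.03). In Tm_LPS against LPS 5 fell and none rose (median -0.83, beside 0.002), and in Tm_LPS against Tm 5 rose and none fell (median 3.04, beside -0.008). In the order named, 75%, 62.5%, 62.5% and 62.5% of the 8 passed, beside 18.4%, 34.5%, 28.9% and 15.7% of all genes. Cx3cl1, counted in LPS against Control and in Tm_LPS against LPS, passed the low-value filter only through LPS libraries, so those counts partly reflect the filter. Ccl2, the main ligand of Ccr2, averaged 883 FPKM in Tm_LPS, 16.2 in Tm, 1877 in LPS and 479 in Control libraries. By limma it fell in Tm against Control (-4.79 ± 0.15 log2, adjusted p = 7.21e-13) and in Tm_LPS against LPS (-1.08 ± 0.15, adjusted p = 4.62e-05). Ccl7, a further Ccr2 ligand, did likewise, at -4.01 and -1.08 log2 (adjusted p = 1.74e-12 and 1.65e-05).

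Ccl3, a ligand of Ccr1, averaged 2741 FPKM in Tm_LPS, 41.0 in Tm, 3399 in LPS and 144 in Control libraries. It rose in LPS against Control (4.55 ± 0.14 log2, adjusted p = 2.53e-13) and in Tm_LPS against Tm (5.99 ± 0.14, adjusted p = 1.17e-14), and its LPS effect was larger with tunicamycin than without it by 1.44 ± 0.20 log2 (adjusted p = 0.000394). Ccl5 averaged 462 FPKM in Tm_LPS libraries with a spread of 108 to 1020, 7.46 in Tm, 146 in LPS and 2.52 in Control libraries. Cx3cl1, which codes for fractalkine, averaged 1.20 FPKM in Tm_LPS, 0.349 in Tm, 7.73 in LPS and 0.282 in Control libraries, and fell in Tm_LPS against LPS (-2.09 ± 0.36, adjusted p = 0.000385). Cx3cl1 passed the low-value filter only through the LPS libraries, where it is high.

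On the complement side 1 of 6 tested genes, C3, rose in LPS against Control, 1 rose and 1 fell in Tm against Control, and none passed in Tm_LPS against LPS or against Tm. These are 16.7% and 33.3% of the 6, beside 18.4% and 34.5% of all genes in LPS against Control and Tm against Control. In Tm_LPS against LPS and against Tm, 28.9% and 15.7% of all genes passed. The gene that fell in Tm against Control, Cfp, kept its call in 14 of 22 alternative settings and turned sign with quantile normalization. C3, whose product is cut to give C3a, averaged 27.7 FPKM in Tm_LPS, 18.6 in Tm, 42.6 in LPS and 2.47 in Control libraries. It rose in Tm against Control as well (2.50 ± 0.27 log2, limma adjusted p = 2.45e-06), and its LPS effect was smaller with tunicamycin than without it by 3.08 log2 (interaction -3.08 ± 0.38, adjusted p = 0.000106). Hc, the gene of C5, was at or near 0 in every library. In Tm against Control, then, C3 rose and C3ar1 fell. Of 3 Fpr2 ligand genes, Saa3, an acute-phase protein, rose in LPS against Control (2.51 ± 0.49, adjusted p = 0.00150) and in Tm against Control (2.13 ± 0.49, adjusted p = 0.00323). Anxa1, the gene of annexin A1, was at 1082 FPKM or more in every library and fell in Tm against Control (-0.40 ± 0.11, adjusted p = 0.0102), a call kept in 19 of 22 alternative settings and lost, among others, with quantile normalization (adjusted p = 0.302). It also fell in Tm_LPS against LPS (-0.37 ± 0.11, adjusted p = 0.0191), a call kept in 14 of 22 settings and lost without LPS replicate 2 (adjusted p = 0.0664), LPS replicate 3 (0.0646), Tm_LPS replicate 1 (0.0884) or Tm_LPS replicate 3 (0.0515). Camp, the third, passed in no comparison.

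Ch25h, the enzyme that makes 25-hydroxycholesterol on the way to the Gpr183 ligand, was highest in Tm_LPS cells, where Gpr183 was lowest. It averaged 19.4 FPKM in Tm_LPS, 2.91 in Tm, 7.88 in LPS and 2.77 in Control libraries. By limma it rose in Tm_LPS against LPS (1.19 ± 0.31 log2, adjusted p = 0.00836) and in Tm_LPS against Tm (2.40 ± 0.31, adjusted p = 3.02e-05). It also rose in LPS against Control (1.24 ± 0.31, adjusted p = 0.00878), a call lost without LPS replicate 2 (adjusted p = 0.0519). Hsd3b7, which breaks the ligand down, averaged 27.4 FPKM in Tm_LPS, 40.3 in Tm, 30.8 in LPS and 31.4 in Control libraries, and Cyp7b1, which completes its synthesis, was under 0.276 FPKM in every library. Hsd3b7 fell in Tm_LPS against Tm (-0.54 ± 0.14, adjusted p = 0.0159), except without Tm replicate 1 (adjusted p = 0.0573) or Tm replicate 2 (0.0585).

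Of 27 other chemoattractant receptors listed, 10 were tested; 5 rose and 1 fell in LPS against Control, 3 rose and 3 fell in Tm against Control, 1 rose and 2 fell in Tm_LPS against LPS, and 3 rose and 1 fell in Tm_LPS against Tm. Their medians were 0.62, 0.02, -0.41 and 0.35 log2 in these 4 comparisons, and 60%, 60%, 30% and 40% passed, beside 18.4%, 34.5%, 28.9% and 15.7% of all genes. Ccrl2, which binds chemerin without signalling, averaged 593 FPKM in Tm_LPS, 39.9 in Tm, 254 in LPS and 11.7 in Control libraries and rose in all 4 comparisons, by 1.23 ± 0.11 log2 in Tm_LPS against LPS (adjusted p = 4.09e-07). Ptafr, the receptor of platelet-activating factor, rose in LPS against Control (2.34 ± 0.23, adjusted p = 7.76e-07) and in Tm against Control (1.64 ± 0.23, adjusted p = 4.01e-05). Ccr3 of the Ccr1 and Ccr2 cluster fell in Tm against Control (-1.64 ± 0.23, adjusted p = 4.7e-05) and in Tm_LPS against LPS (-1.49 ± 0.23, adjusted p = 0.000162). Cxcr3, a receptor of interferon-induced chemokines, fell in the same comparisons (-2.22 ± 0.32 and -1.58 ± 0.32, adjusted p = 6.13e-05 and 0.00159). Ccr3 passed the low-value filter only through the groups without tunicamycin, where it is high. Of the other receptors tested, Ccr7, Xcr1 and Cxcr2 passed it only through groups with LPS. C5ar2 passed it only through Control libraries, and Cxcr4 mainly through Tm libraries. The counts and shares of this list are therefore partly set by that filter.

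Of 29 other metabolite and lipid receptors, 20 were tested; 6 rose and 3 fell in Tm_LPS against LPS, 7 rose and 4 fell in Tm against Control, 6 rose and 7 fell in LPS against Control, and 6 rose and 8 fell in Tm_LPS against Tm. Their medians were -0.03, 0.10, -0.16 and -0.13 log2 in these 4 comparisons, and 45%, 55%, 65% and 70% passed, beside 28.9%, 34.5%, 18.4% and 15.7% of all genes. Hcar2, the receptor of nicotinate and hydroxybutyrate, had the same order of group means as Gpr84, with 31.4 FPKM in Tm_LPS, 4.22 in Tm, 35.7 in LPS and 0.802 in Control libraries on average. It rose in LPS against Control (4.33 ± 0.21 log2, adjusted p = 1.2e-10) and in Tm against Control (1.53 ± 0.21, adjusted p = 3.96e-05). Ptgir, the prostacyclin receptor, rose 3.36 ± 0.14 log2 in Tm against Control (adjusted p = 4.66e-11). Ffar2, a short-chain fatty acid receptor, was listed at 0 in all 6 libraries without tunicamycin and averaged 1.09 FPKM in Tm_LPS and 8.53 FPKM in Tm libraries. Lpar6, a lysophosphatidic acid receptor, was like Gpr183 lower with either agent, at 1.34 FPKM in Tm_LPS, 3.63 in Tm, 1.92 in LPS and 16.8 in Control libraries, and fell in LPS against Control (-2.66 ± 0.23, adjusted p = 1.93e-07) and in Tm against Control (-1.94 ± 0.23, adjusted p = 8.95e-06). S1pr2, a sphingosine-1-phosphate receptor, fell in Tm_LPS against LPS (-2.16 ± 0.15, adjusted p = 1.95e-08). Hcar2 and Gpr18 were under 1 FPKM in every Control library and passed the low-value filter only through the other groups. Ffar2 passed it only through the groups with tunicamycin, and some further receptors of the list likewise only through groups where they are high. The counts and shares of this list are therefore partly set by that filter.

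**Figure D4:**
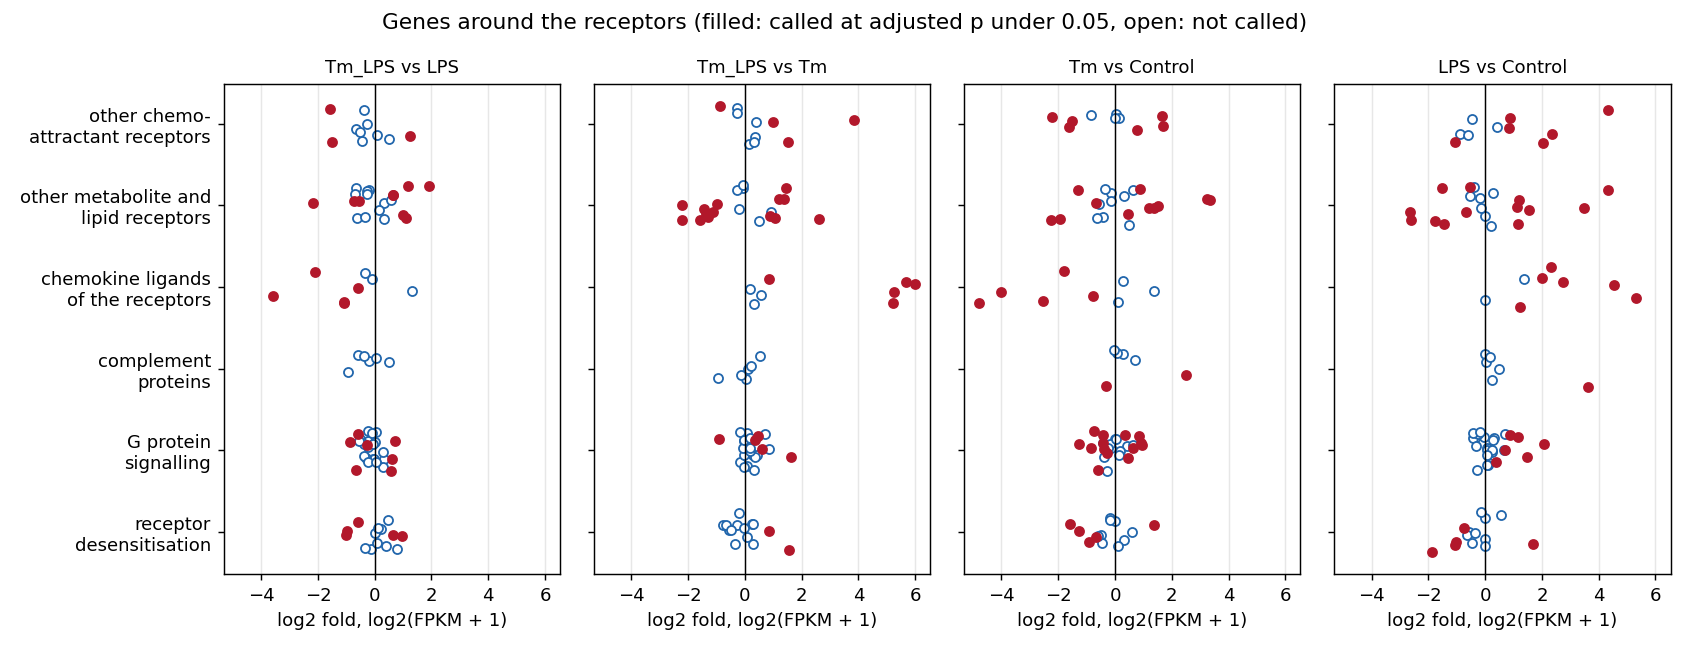
Log2 fold on the log2(FPKM + 1) scale (x axis) of each tested gene in 6 lists around the receptors, in 4 comparisons (filled: adjusted p under 0.05; open: not passed; vertical spread within a list is for legibility). Chemokine ligands lie to the left for Tm against Control, where 5 of 8 fell, and to the right for LPS against Control, where 6 of 8 rose.

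Downstream of the receptors, all 26 genes of G protein and chemotactic signalling were tested, and 8 fell and 6 rose in Tm against Control, 4 fell and 3 rose in Tm_LPS against LPS, and 6 rose and none fell in LPS against Control. Their medians were -0.17, -0.15 and 0.12 log2, and those that passed made up 53.8%, 26.9% and 23.1% of the list, beside 34.5%, 28.9% and 18.4% of all genes. Pik3r5, the p101 subunit of PI3K-gamma, rose in LPS against Control (2.07 ± 0.13 log2, adjusted p = 1.73e-09), while Pik3cg, its catalytic subunit, fell in Tm against Control (-1.29 ± 0.22, adjusted p = 0.000269). Of 14 tested genes of receptor desensitisation, 4 fell and 1 rose in Tm against Control and likewise in LPS against Control, with medians of -0.31 and -0.41 log2. That is 35.7% of the 14 in each, beside 34.5% and 18.4% of all genes. In Tm_LPS against LPS 2 rose and 3 fell (median 0.10), and in Tm_LPS against Tm 2 rose and none fell (median -0.12). These are 35.7% and 14.3% of the 14, beside 28.9% and 15.7% of all genes. Rgs2, which speeds the switching off of G proteins, averaged 10.4 FPKM in Tm_LPS, 12.5 in Tm, 10.1 in LPS and 39.6 in Control libraries. It fell in LPS against Control (-1.86 ± 0.18, adjusted p = 7.53e-07) and in Tm against Control (-1.57 ± 0.18, adjusted p = 6.01e-06). Rgs1 fell in Tm against Control (-0.91 ± 0.18, adjusted p = 0.000745) and rose in Tm_LPS against LPS (0.65 ± 0.18, adjusted p = 0.0111).

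The genes whose pattern lay closest to each receptor were found by the root mean square difference of centred log2(FPKM + 1) over the 12 libraries. C3ar1 had the closest partners, Actg1 at 0.110, Efhd2 at 0.116 and Plec at 0.137 log2. Actg1, a cytoplasmic actin gene, averaged 1840.3 FPKM in Tm_LPS, 1228 in Tm, 4094 in LPS and 3611 in Control libraries. C5ar1 had no close partner, since its nearest, Bcl2l1, differed by 0.744 log2, beside an SD of 1.86 log2 for C5ar1 itself. Gpr84 lay nearest to Arl5c (0.441) and the adhesion gene Icam1 (0.470), and Fpr1 to Dusp2 (0.506), Nfkbie (0.507) and Socs1 (0.548). Gpr183 lay nearest to Rab3il1 (0.419) and Rab7b (0.519), and Ccr1 to the transcription factor gene Maf (0.219). Cx3cr1 lay nearest to Ctla2b (0.271), Fpr2 to Zufsp (0.210) and Ccr2 to Sidt2 (0.295).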

How the data were processed

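The authors deposited 1 table of FPKM with 24346 gene symbols and 12 library columns, all matched to samples by title. The submitters' processing notes name TopHat2 2.0.13 with Bowtie2 2.2.3 and Cufflinks 2.2.1, besides SAMtools 0.1.19, and the mm10 build. The annotation, the strand setting and a scaling step, if any, are not given in the sources used here. Median-of-ratios factors were 1.013 to 1.019, so the deposited FPKM were already level between libraries on that scale. Read depth is unknown, and counts were not recovered: among low values, 6.88% to 19.0% lay at the most common ratio between libraries. FPKM cannot show a change in total RNA per cell.

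Genes of at least 1 FPKM in at least 3 libraries (10311) were taken to log2(FPKM + 1). In R 4.3.3, limma 3.58.1 was run with lmFit and with a trended eBayes on all 12 libraries, each group having its own mean. The 5 contrasts were Tm_LPS against LPS, Tm_LPS against Tm, Tm against Control, LPS against Control, and the interaction, (Tm_LPS - Tm) - (LPS - Control). Tests are two-sided, with Benjamini-Hochberg adjustment and a threshold of 0.05. All 9 receptor genes met the filter. The fit was also run on simulated data with independent normal noise, which cannot show how it behaves on these libraries. No library pair was identical.

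The receptor genes, the gene lists and the marker lists were chosen with earlier results of these data known; the lists came from general knowledge. Genes named besides the 9 are, per list and contrast, among the 4 that passed with the largest change, all Fpr2 ligand and Gpr183 ligand enzyme genes, annotated neighbours, and the 3 genes nearest in pattern to each receptor, leaving out gene models with no standard symbol. Ubac2 and Hc are named as neighbour and ligand, and marker genes come from the marker lists. A few genes this would name are not reported here. Coordinates are from GENCODE M21 and promoters from RefSeq (GRCm38.p6). Python 3.11.15 with pandas 2.3.3 and matplotlib 3.10.9 drew the figures.

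Alternatives were quantile normalization, scaling by median-of-ratios factors, a 0.1 pseudocount, a 5 FPKM filter, no filter, the replicate number as a block, a fit of the contrast's groups alone, a robust fit, no trend, and leaving out each library, or Control replicate 2 with Tm_LPS replicate 3.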

Additional observations from a re-analysis of the deposited data

Results flagged for a closer look

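The LPS effect on Fpr1 differed with tunicamycin. It was smaller than without tunicamycin by 2.29 on the log2(FPKM + 1) scale (interaction -2.29, limma adjusted p = 0.00375), with every Tm_LPS library between the Tm and the LPS libraries. Fpr1 passed the low-value filter only through the groups where it is high, and was under 1 FPKM in all 3 Control libraries, so the size depends on the pseudocount (-3.99 with 0.1).

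For Gpr84, tunicamycin went with a slightly lower level where LPS was present and a higher level where it was not. Each of the 3 Tm_LPS libraries lay below each LPS library, each of the 3 Tm libraries lay above each Control library, and the effects differed by -3.36 log2. This difference was not tested, because Gpr84 was chosen partly for its changes. The difference between Tm_LPS and LPS was small, at -0.18 ± 0.10 (SE) log2, with at most 519 FPKM in Tm_LPS and at least 535 in LPS libraries. With quantile normalization the difference between Tm_LPS and LPS was -0.002 log2.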

How the results depend on the processing

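Of the values for C3ar1, Ccr1, Ccr2, Fpr1 and Fpr2 under the alternatives, 519 of 535 stayed on their side of the threshold, though values that did not pass could turn sign (C3ar1 in LPS against Control, -0.17 to 0.08; the Ccr2 interaction, -0.59 to 0.50). The others are given beside the gene or, for the replicate block, here. Of those for C5ar1, Cx3cr1, Gpr183 and Gpr84, 426 of 436 moved by less than the spread between replicates. The exceptions were C5ar1 (0.12, LPS against Control) and Gpr84 with quantile normalization (4.67 for LPS against Control, 3.32 for Tm against Control, -0.002 for Tm_LPS against LPS and 1.34 for Tm_LPS against Tm), and Gpr183 (-3.65, -1.62 and -1.92) and Cx3cr1 (-2.69 and -2.89) with a pseudocount of 0.1. The number of genes passing for Tm_LPS against Tm was 1618, and 1068 to 1655 when 1 library was left out, lowest without Tm replicate 2. For the interaction it was 347, and 228 to 352, lowest without Tm replicate 3, and 216 without Control replicate 2 and Tm_LPS replicate 3 together. With 1 library left out it was 2310 to 3034 for Tm_LPS against LPS, 2803 to 3677 for Tm against Control and 1468 to 1976 for LPS against Control. Quantile normalization turned the share higher among genes passing in Tm_LPS against Tm to 44.9%, against 55.4%, that in LPS against Control to 48.0%, against 57.2%, and the complement gene Cfp in Tm against Control to 0.0346 log2, against -0.30. The causes were not tested. Labels give each group replicates 1 to 3 without saying what they mark. Over 18 same-numbered pairs deviations correlated at -0.04 to 0.09, though 10 of 12 libraries correlated best with their own number. With the replicate number as a block 2993, 1628, 3552, 1858 and 348 genes passed for Tm_LPS against LPS, Tm_LPS against Tm, Tm against Control, LPS against Control and the interaction, and Fpr1 passed in Tm against Control (adjusted p = 0.0311). Unknown depth limits what can be said of values near 1 FPKM, which Ccr2, Fpr1, Fpr2, Gpr183 and Cx3cr1 have in some groups.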
